A study of Mus musculus with 8 samples.

Results

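The genes described are 10 immediate early genes, which are Fos, Fosb, Junb, Egr1, Egr2, Egr3, Egr4, Arc, Nr4a1 and Npas4, taken by their symbols from the 10588 genes tested. All 10 were found, each as 1 transcript, and none was dropped. RNA was taken from the right cortex of 4 bigenic mice (Camk2a-tTa / deltaNLS-hTDP-43) and 4 nontransgenic mice, all C57BL/6. In bigenic mice the Camk2a promoter, which is active mainly in forebrain excitatory neurons, drives a transactivator that switches on human TDP-43 with a mutated nuclear localization signal once doxycycline is withdrawn. Both groups received doxycycline until 28 days of age and were sampled 10 days later, and mice carrying 1 of the 2 transgenes alone were not analysed here. The comparison asks how these genes differ between cortex with and without cytoplasmic TDP-43, and how far they vary between mice of the same group.

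Immediate early genes are transcribed within minutes of neuronal firing, growth factor signalling or stress, without new protein synthesis. Calcium entry and kinase cascades act on CREB, serum response factor and MEF2, which are already bound at their promoters, and the mRNAs decay quickly, so that their level follows recent activity. Most encode transcription factors, namely the AP-1 subunits Fos, Fosb and Junb, the zinc finger factors Egr1 to Egr4, the orphan nuclear receptor Nr4a1 and the neuron-restricted factor Npas4. Arc encodes a protein that acts at synapses and in AMPA receptor endocytosis.

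Among the control elements of such genes is the cyclic AMP response element, which CREB binds. Promoter sequences (250 bases before to 50 after a transcript start, RefSeq, build GRCm38.p6) were at hand for 7 of the 10 genes, and the half-site TGACG or its reverse complement CGTCA was found in 7 of these 7, against 23.0% of 27025 genes with such a sequence. The palindrome TGACGTCA was found in 0 of the 7, against 2.03% of genes. The CArG box, the site of serum response factor, was found in 1 of the 7 (Egr2), against 1.81% of genes. Both strands were searched and the palindrome contains the half-site, so these counts overlap. A match is a description of the letters, and binding was not measured. Sites more than 250 bases before a start lay outside the search. A stretch of 30 bases around a half-site is shown for each of the 7 genes, because it is a feature that these 7 share outside their expression. The stretches are written 5′ to 3′ on the strand of the gene, with the half-site in capitals and in Egr2 the CArG box too, and each was located in mm9 by an exact match.
Fos, chr12:86814762-86814791, plus strand: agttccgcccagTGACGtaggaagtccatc
Fosb, chr7:19895437-19895466, minus strand: tggagttgcgggTGACGcaagcgcgggggc
Junb, chr8:87502736-87502765, minus strand: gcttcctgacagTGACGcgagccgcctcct
Egr2, chr10:67000541-67000570, plus strand: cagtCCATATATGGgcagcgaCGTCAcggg
Egr4, chr6:85463675-85463704, minus strand: tttggtcatttaCGTCAcggcgccagggcc
Nr4a1, chr15:101097196-101097225, plus strand: ccgggccgtgtgCGTCAgtggcgcccccgc
Npas4, chr19:4990128-4990157, minus strand: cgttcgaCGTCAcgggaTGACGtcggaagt

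The deposited values are whole numbers scaled per mouse, called normalized counts here. Column totals lay between 20.1 M and 22.0 M, and about 10.6 M to 31.9 M reads per bigenic mouse and 20.2 M to 29.0 M per nontransgenic mouse lay on genes. A column could be tied to a group but not to a numbered sample, so mice are lettered a to d within each group, and the sources name the mice but not litters or batches. The transcript for the transgene was at 29375 to 41550 normalized counts in bigenic mice and at 5 to 80 in nontransgenic mice. Bigenic mouse b stood apart, with the fewest reads and a weight of 0.0843 when limma weighted the libraries by their fit. Xist, the RNA of the inactive X chromosome in females, was above 1000 normalized counts in 1 bigenic mouse (a) and 2 nontransgenic mice (a and b), whereas the methods give both groups the same numbers of males and females, so 1 library did not match that account. Values without these libraries are given beside the genes and pairs that they move.

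Npas4 and Egr3 were downregulated in bigenic cortex, to 0.493 and 0.495 of their nontransgenic level, with no overlap between the groups. Egr2 also passed the test as lower, but it reached the minimum level only in nontransgenic mice and did not pass without that filter or when any of 6 single mice was left out. No immediate early gene was upregulated. The other 7 genes did not pass the test, and most of them varied between mice of one group by several fold. The test was limma on log2(normalized count + 1) across all genes with 1 or more mice at 10 RPM (relative to the column total) or above, with an adjusted p-value below 0.05 as threshold. Of all genes tested 35.9% passed, 15.4% lower and 20.5% higher in bigenic mice, where 3 of the 10 passed, all lower and Egr2 among them. The median log2(fold change) was −0.57 over the 10 genes and 0.03 over all genes tested, and 8 of the 10 values were below 0. The 10 genes largely shared the ranking of the mice, so their signs are not independent of each other. The groups did not overlap in 2 of the 10 genes, both lower in bigenic mice, where the groups were apart for 39.0% of all genes, and for 16.7% in that direction.

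Npas4 (uc008gbu.2) encodes a basic helix-loop-helix factor that answers calcium entry and sets the balance of inhibitory synapses onto excitatory neurons. It lies on the minus strand of chromosome 19 (chr19:4984355-4989971, mm9). Its normalized counts were 211, 443, 348 and 305 in bigenic mice a to d and 549, 690, 641 and 699 in nontransgenic mice a to d. Every bigenic mouse was below every nontransgenic mouse. By limma the log2(fold change) was −1.02 (SE 0.20, limma adjusted p-value 0.0034), which is a fold of 0.493 with a 95% interval from 0.363 to 0.668. Its group means were 327 ± 96.3 and 645 ± 68.7 normalized counts (SD, n = 4 each).

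Egr3 (uc007unb.1, chr14:70477252-70479964, plus strand) is a zinc finger factor of the same family as Egr1. It was at 241, 565, 418 and 494 normalized counts in bigenic mice a to d. In nontransgenic mice a to d it was at 778, 832, 874 and 831. The groups were again separate, and the nontransgenic mice lay close together, with a coefficient of variation of 4.74% against 32.4% in bigenic mice. Between the groups the log2(fold change) was −1.01 (SE 0.22, limma adjusted p-value 0.00632), a fold of 0.495 with a 95% interval from 0.352 to 0.697.

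Egr2 (uc007flx.1, chr10:66998223-67004936, plus strand), best known as the Krox-20 factor of myelinating Schwann cells and the hindbrain, was the least abundant of the 10. Its normalized counts were 15, 122, 28 and 45 in bigenic mice a to d and 61, 264, 105 and 299 in nontransgenic mice a to d. The groups overlapped, since bigenic mouse b was above nontransgenic mice a and c. The log2(fold change) was −1.91 (SE 0.66, 95% interval −3.39 to −0.43, limma adjusted p-value 0.0475). Egr2 reached 10 RPM in 2 mice, both nontransgenic, with a highest value of 5.55 RPM in bigenic mice, so it entered the test through the group in which it was high and its call is no independent support. The lowest value, 15 normalized counts, stood for about 11 reads, for which counting error alone allows 5.49 to 19.7 reads (exact Poisson, 95%). Without bigenic mouse b the log2(fold change) was −2.45 (limma adjusted p-value 0.00388), and it did not pass when any of 6 other mice was left out, nor without the 3 mice with high Xist (−1.70, limma adjusted p-value 0.196).

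Npas4 and Egr3 passed the threshold whichever single mouse was left out. Without the 3 mice with high Xist, which leaves 3 bigenic and 2 nontransgenic mice, the log2(fold change) was −0.89 for Npas4 (limma adjusted p-value 0.0478) and −0.80 for Egr3 (limma adjusted p-value 0.0441). Without bigenic mouse b the values were −1.18 for Npas4 (limma adjusted p-value 0.00016) and −1.17 for Egr3 (limma adjusted p-value 0.000689). In cortex tissue, fewer cells of a type and less RNA per cell cannot be told apart. The summed level of 7 markers of excitatory cortical neurons was 44111 to 63412 normalized counts in bigenic mice and 72896 to 80299 in nontransgenic mice, with 2 of the 7 lower and 1 higher by the test. Camk2a, 1 of the 7, was at 22112 to 30548 normalized counts in bigenic and 44895 to 49794 in nontransgenic mice. The gap between the sums was mainly that of Camk2a, so the sums do not show a fall of all 7. The 6 interneuron markers summed to 15136 to 15723 in bigenic and 16917 to 18678 in nontransgenic mice, with 2 of the 6 lower. No neuron marker was at 0 in any mouse. The part of these differences in the results for Npas4, Egr3 and Egr2 was not tested.

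**Figure D1:**
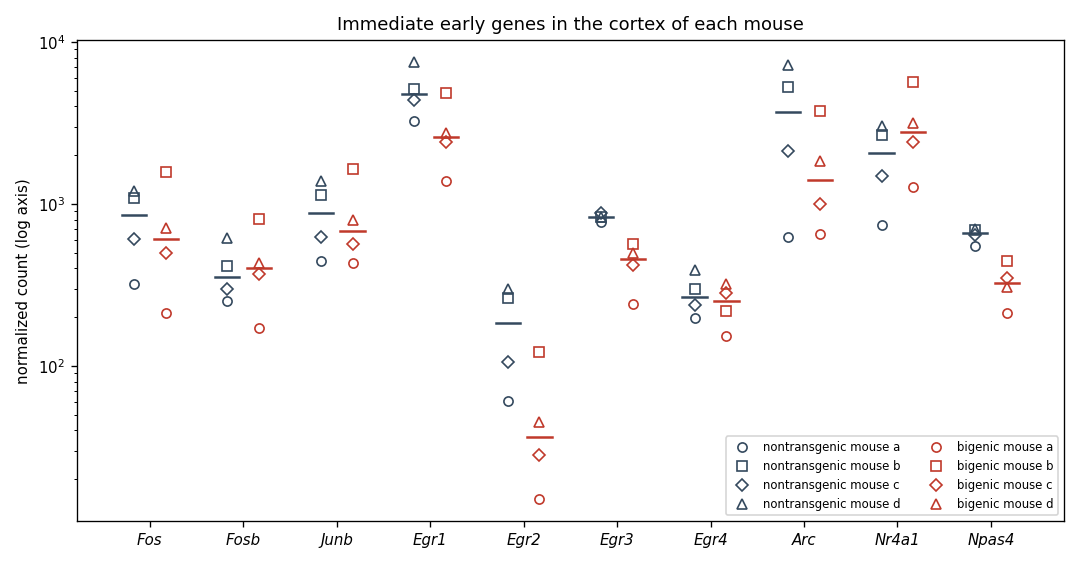
Normalized counts of the 10 immediate early genes on a log axis, with 1 symbol per mouse (4 nontransgenic in blue, 4 bigenic in red, the symbol giving the letter of the mouse) and a horizontal bar at the median of each group. The groups are apart for Egr3 and Npas4 and overlap for the other 8 genes, and the circles (mouse a of each group) are the lowest point of their group for every gene.

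Egr1 (uc008elt.1), a zinc finger factor often used as a marker of recent neuronal activity, lies on the plus strand of chromosome 18. Its normalized counts were 1376, 4825, 2419 and 2741 in bigenic mice a to d. In nontransgenic mice a to d they were 3255, 5123, 4405 and 7513. Only bigenic mouse b reached the nontransgenic range. By limma the log2(fold change) was −0.91 (SE 0.35, 95% interval −1.70 to −0.13), with an unadjusted p of 0.0273 and a limma adjusted p-value of 0.0680. Without bigenic mouse b it was −1.21 (limma adjusted p-value 0.00446), so that the call depends on that library. The call depends on the processing too. With all mice, Egr1 passed with array weights (limma adjusted p-value 0.000383), with voom (0.0473) and with a trend on GC content and length removed (0.0404). Without the 3 mice with high Xist the log2(fold change) was −0.86 (limma adjusted p-value 0.191). Exons of the predicted gene Gm17507 overlap Egr1 on the opposite strand, and no source states that reads were counted by strand.

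Egr4 (uc009cpy.1, chr6:85461125-85463583, minus strand), the remaining member of the Egr family, was at 153, 219, 281 and 319 normalized counts in bigenic mice a to d and at 197, 298, 237 and 388 in nontransgenic mice a to d. The groups overlapped over most of their range. Between the groups the log2(fold change) was −0.21 (SE 0.26, 95% interval −0.79 to 0.37, limma adjusted p-value 0.549), and with single mice left out it lay between −0.36 and −0.0070.

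Fos (uc007oha.1, chr12:86814840-86818223, plus strand) encodes the AP-1 subunit that pairs with a Jun protein. It was at 213, 1584, 495 and 712 normalized counts in bigenic mice a to d and at 322, 1094, 604 and 1206 in nontransgenic mice a to d. The highest and the lowest values were both from bigenic mice, and the bigenic range spanned 7.44-fold. The log2(fold change) was −0.28 (SE 0.58, 95% interval −1.57 to 1.02, limma adjusted p-value 0.732).

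Fosb (uc009flk.1, chr7:19888070-19895394, minus strand), whose truncated splice form accumulates with repeated activity, was at 172, 809, 368 and 432 normalized counts in bigenic mice a to d. In nontransgenic mice a to d it was at 250, 414, 297 and 617. By limma the log2(fold change) was 0.06 (SE 0.43, 95% interval −0.89 to 1.01, limma adjusted p-value 0.927). Both ends of the overall range were again bigenic mice, a and b.

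Junb (uc012ghn.1, chr8:87500811-87502617, minus strand), an AP-1 subunit with weaker activity than Jun, was at 433, 1632, 563 and 790 normalized counts in bigenic mice a to d and at 441, 1133, 621 and 1375 in nontransgenic mice a to d. The 2 groups covered almost the same range. Between the groups the log2(fold change) was −0.11 (SE 0.44, 95% interval −1.09 to 0.87, limma adjusted p-value 0.862). For Fos, Fosb and Junb alike, the intervals hold both a fall to 0.6 of the level and a 1.5-fold rise, so that a change of that size was not detectable with 4 mice per group, and the sign of each turned when single mice were left out.

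Arc (uc007wfn.1, chr15:74499513-74503000, minus strand) had the widest range of the 10 in nontransgenic mice. It was at 649, 3754, 994 and 1834 normalized counts in bigenic mice a to d and at 621, 5241, 2115 and 7175 in nontransgenic mice a to d. The lowest and the highest values were both nontransgenic, 11.6-fold apart. The log2(fold change) was −0.87 (SE 0.75, 95% interval −2.54 to 0.80, limma adjusted p-value 0.389), and with single mice left out it lay between −1.57 and −0.39.

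Nr4a1 (uc007xsv.2, chr15:101097277-101105223, plus strand), also called Nur77, had the highest value above 0. It was at 1273, 5650, 2395 and 3143 normalized counts in bigenic mice a to d. In nontransgenic mice a to d it was at 741, 2664, 1481 and 3029. The lowest mouse was nontransgenic and the highest 2 were bigenic, with overlap between. By limma the log2(fold change) was 0.65 (SE 0.50, 95% interval −0.47 to 1.77, limma adjusted p-value 0.333), and with single mice left out it lay between 0.25 and 1.02.

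**Figure D2:**
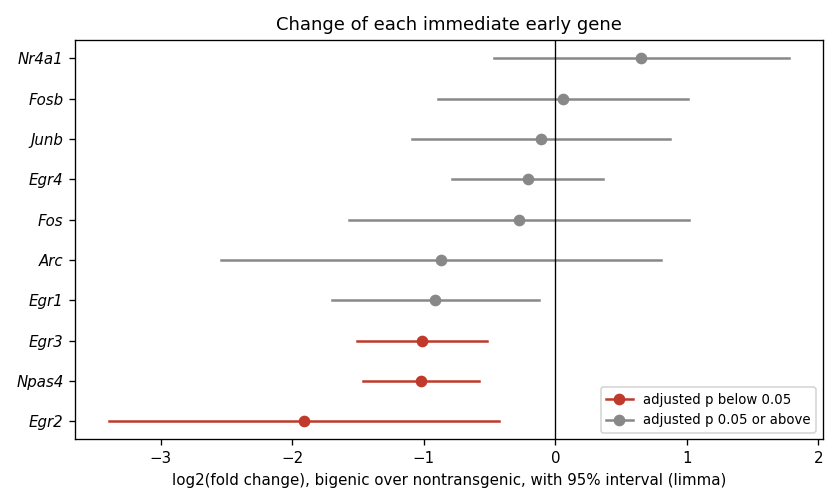
Log2(fold change) of each immediate early gene, bigenic over nontransgenic mice (4 each), with its 95% interval from limma. The intervals of Egr2, Npas4 and Egr3 (red) have adjusted p-values below 0.05, that of Egr1 ends at −0.13 without passing the adjusted threshold, and Nr4a1 lies highest at 0.65.

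Per length of exon, the order of the genes differed between the groups, in the first 3 places and also for Egr3, Junb, Npas4, Egr4 and Fosb. The lengths are those of merged GENCODE exons, which may differ from those of the transcripts counted, so a place within a group may depend on them. Egr3 had the shortest length, at 1469 bases. Fos and Egr2 kept their places. In nontransgenic mice the medians were 74.3 RPM per kb for Egr1, 58.4 for Arc, 40.6 for Nr4a1, 27.3 for Egr3, 23.5 for Junb, 17.5 for Fos, 9.74 for Npas4, 6.05 for Egr4, 4.58 for Fosb and 2.64 for Egr2. In bigenic mice Nr4a1 came first with a median of 54.0 RPM per kb, followed by Egr1 at 40.1, Arc at 22.3, Junb at 18.0, Egr3 at 15.0 and Fos at 12.4. The lowest 4 were Egr4 at 5.49 RPM per kb, Fosb at 5.14, Npas4 at 4.80 and Egr2 at 0.518. Neighbours in either order overlapped in their range over the mice, except that bigenic Egr2 (0.219 to 1.63 RPM per kb) lay below bigenic Npas4 (3.20 to 6.15 RPM per kb).

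The mice of one group ranked in nearly the same way for every gene. Mouse a was the lowest of its group for 10 of 10 genes among bigenic mice and for 10 of 10 among nontransgenic mice. Bigenic mouse b was the highest bigenic mouse for 9 of the 10 genes, Egr4 being highest in mouse d. Nontransgenic mouse d was the highest nontransgenic mouse for 9, Egr3 being highest in mouse c. The spread between mice of a group, as the residual SD of log2 values, was 1.36 for Arc, 1.17 for Egr2, 1.05 for Fos and 0.91 for Nr4a1, where the median of all genes tested was 0.16. It was smallest for Egr3 at 0.38 and Npas4 at 0.33, and 9 of the 10 genes exceeded the 95th percentile of all genes (0.38). Approximate reads on genes in bigenic mice a to d were 15.2 M, 10.6 M, 23.5 M and 31.9 M, so that the lowest and the highest bigenic mouse were the 2 shallowest libraries. In nontransgenic mice they were 22.5 M, 20.2 M, 23.3 M and 29.0 M.

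Mouse a of each group also had high Xist, as did nontransgenic mouse b, which was not among the lowest. The summed level of 6 striatal neuron markers was 6637 normalized counts in bigenic mouse a and 2005 to 2346 in the other bigenic mice, and 3344 to 4881 in nontransgenic mice, with nontransgenic mouse a at 3663. Of the 7 markers of excitatory cortical neurons, the sum was 44111 in bigenic mouse a and 63412 in bigenic mouse b, the lowest and the highest of that group. In nontransgenic mice it was highest in mouse c, at 80299. The part of sex, dissection or cell content in the ranking of the mice was not tested.

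**Figure D3:**
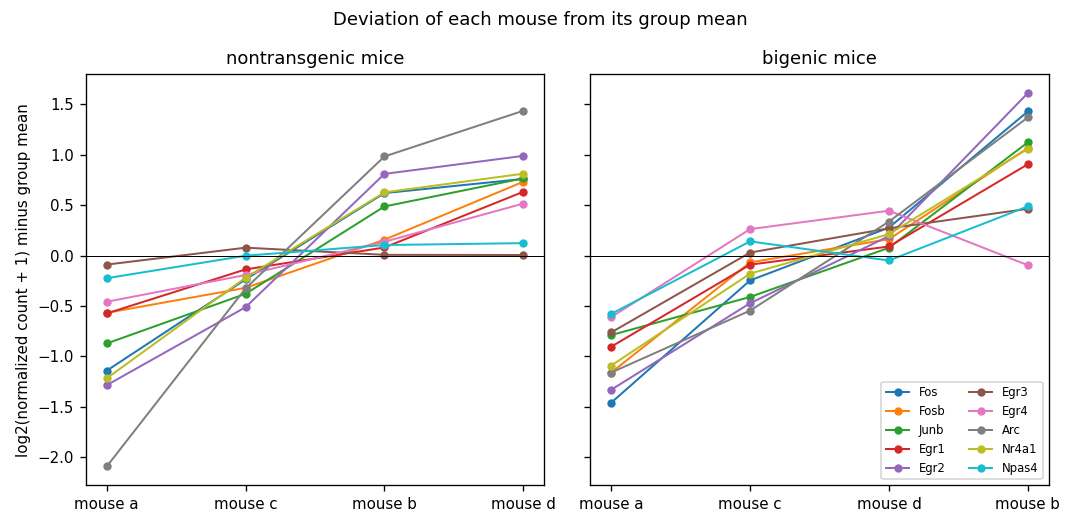
Deviation of each mouse from the mean of its group in log2(normalized count + 1), for nontransgenic mice (left) and bigenic mice (right), with 1 line per immediate early gene and the mice ordered by their common level. Most lines climb together from mouse a, while Egr3 and Npas4 stay within a narrow band in nontransgenic mice and Egr4 falls in bigenic mouse b.

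The genes outside the 10 whose deviations from the group mean followed the same mice most closely were Dusp6, Gpr3, Spry4, Abca7 and Itga7. Over the 8 mice, Pearson's r with the mean standardized deviation of the 10 genes was 0.992 for Dusp6, a phosphatase that turns off ERK, and 0.990 for Gpr3, a receptor that raises cyclic AMP. It was 0.985 for Spry4, an inhibitor of receptor tyrosine kinase signalling, for Abca7, a lipid transporter, and for Itga7, a laminin-binding integrin. Without the 2 mice farthest from the middle (mouse a of each group) the r values stayed between 0.955 and 0.990. These correlations share libraries and depth, and the 5 were picked as the highest of all genes, so they are given as a description. Dusp6 was at 700, 1754, 1165 and 1378 normalized counts in bigenic mice a to d and at 1119, 2117, 1623 and 2259 in nontransgenic mice a to d. Its log2(fold change) was −0.53 (SE 0.29, limma adjusted p-value 0.173), and of the 5 genes Itga7 alone passed (0.52, limma adjusted p-value 0.0302). Within the 10, Fos followed the mean of the other 9 most closely (r = 0.992), and Egr3 (r = 0.769) and Egr4 (r = 0.671) least.

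Since the level of a mouse was shared, the genes were also compared within each mouse, as the log2 ratio of 2 genes. Among 9 pairs within the Egr and AP-1 families, the groups overlapped in every one. With 9 pairs, a single pair at the smallest possible p would have had an adjusted p of 0.257, so that these tests could hardly pass. The smallest exact permutation p (two-sided, 70 arrangements, smallest possible 0.0286) was 0.0571 for Egr3 over Egr4, adjusted 0.257. This ratio was 1.57, 2.57, 1.49 and 1.55 in bigenic mice a to d and 3.93, 2.79, 3.68 and 2.14 in nontransgenic mice a to d, a log2 difference of −0.80 (SE 0.275). Only nontransgenic mouse d lay within the bigenic range. The log2 ratio of Egr1 over Egr2 differed by 1.0 (SE 0.423, exact permutation p = 0.0857, adjusted 0.257), and that of Fos over Junb by −0.17 (SE 0.245, exact permutation p = 0.686, adjusted 0.714).

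All 45 pairs were compared after the values had been seen. Groups did not overlap in 14 of them. Of the ratios of these immediate early genes to tested genes not among them, 18.0% were without overlap. Those ratios keep the level that the immediate early genes shared within a mouse, which can cancel when both genes are immediate early genes. The 18.0% therefore does not show whether 14 is more than usual for such pairs. Each of the 14 had the smallest exact permutation p, 0.0286, and an adjusted p of 0.0918, so none passed. Nr4a1 was in 8 of the 14, with each of the other genes except Egr4, and in every one it was higher relative to its partner in bigenic mice. The normalized count of Fos was 0.168, 0.280, 0.207 and 0.227 of that of Nr4a1 in bigenic mice a to d. In nontransgenic mice a to d it was 0.435, 0.411, 0.408 and 0.398 of it. These nontransgenic ratios lay within a narrow band although Fos itself spanned 3.75-fold in those mice. The log2 ratio of Fos over Nr4a1 was lower by 0.93 on average (difference −0.93, SE 0.156). Egr1 over Nr4a1 was 1.08, 0.854, 1.01 and 0.872 in bigenic mice a to d and 4.39, 1.92, 2.97 and 2.48 in nontransgenic mice a to d (log2 difference −1.56, SE 0.264).

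Nr4a1 over Npas4 was 6.01, 12.7, 6.87 and 10.3 in bigenic mice a to d and 1.35, 3.86, 2.31 and 4.33 in nontransgenic mice a to d. The log2 difference was 1.67 (SE 0.460). The largest difference of a pair was that of Egr2 over Nr4a1, at −2.56 (SE 0.225), with the limits on Egr2 given above. Egr2 was in 5 of the 14 pairs, and Fosb over Egr1 (0.97, SE 0.111) and Junb over Egr1 (0.80, SE 0.203) were the 2 that held neither Nr4a1 nor Egr2. Pairs that share a gene are not independent of each other. Each of the 14 was picked because its groups did not overlap, so leaving out mice could not turn its sign. With single mice left out, the log2 difference lay between −1.05 and −0.81 for Fos over Nr4a1, between −1.75 and −1.35 for Egr1 over Nr4a1 and between 1.34 and 1.90 for Nr4a1 over Npas4. Without the 3 mice with high Xist these were −0.77, −1.58 and 1.61. Fosb over Nr4a1 moved from −0.60 to −0.38 without nontransgenic mouse a, and Egr2 over Arc from −1.04 to −0.67 without the mice with high Xist.

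**Figure D4:**
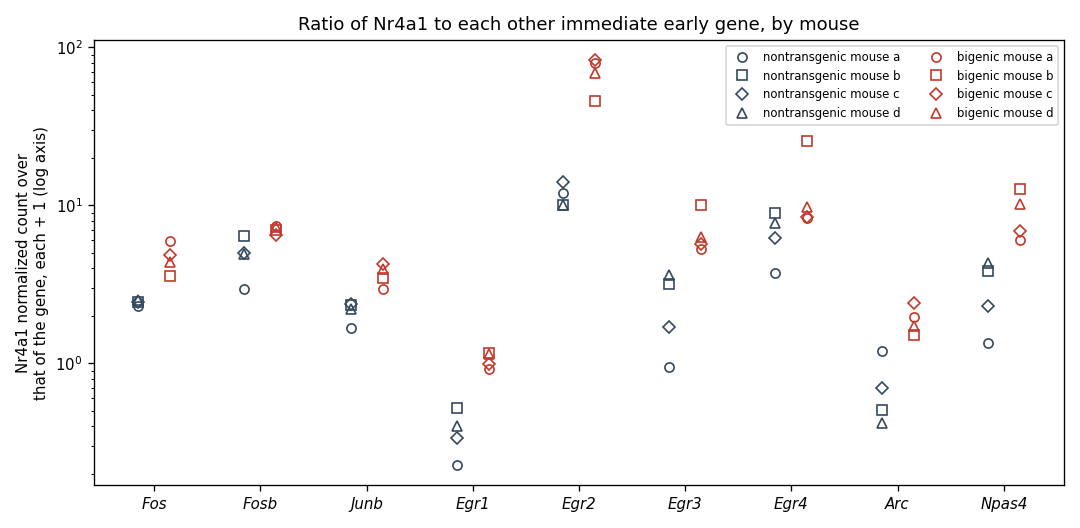
Ratio of the normalized count of Nr4a1 to that of each other immediate early gene (each + 1) on a log axis, with 1 symbol per mouse (nontransgenic in blue, bigenic in red). The bigenic mice lie above the nontransgenic mice for 8 genes and overlap them for Egr4, and for Npas4 the ratios are 6.01 to 12.7 against 1.35 to 4.33.

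Among the partners and co-repressors of these factors, 11 of 11 genes were tested, and 2 were downregulated (18.2%, beside 15.4% of all genes) and 1 upregulated (9.09%, beside 20.5%). Jun, the AP-1 subunit that pairs with Fos, was downregulated (log2(fold change) −0.86, SE 0.14, limma adjusted p-value 0.0016), with 651 to 974 normalized counts in bigenic and 1219 to 1728 in nontransgenic mice. Maf, a bZIP factor that can pair with AP-1 proteins, was downregulated by a smaller amount (−0.36, limma adjusted p-value 0.0070). Nab1, a co-repressor of Egr proteins, was upregulated (0.38, limma adjusted p-value 0.0097), whereas its paralogue Nab2 had a value of 0.27 (limma adjusted p-value 0.469). The other AP-1 partners were at −0.35 for Jund (limma adjusted p-value 0.0532), −0.12 for Mafk and 0.11 for Atf2. The Npas4 partners Arnt and Arnt2 were at 0.25 and −0.03, and the Nr4a1 partners Rxra and Rxrb at −0.22 and 0.16, none of which passed.

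Of 46 other rapid-response genes, 37 were tested, and 5 were upregulated and 5 downregulated (13.5% each way), which is below the 20.5% and 15.4% of all genes. Without bigenic mouse b 11 were downregulated, while the genes called lower over the whole table also rose, from 1629 to 2134. The median log2(fold change) was −0.22. Rgs2, which shortens signalling by Gq-coupled receptors, was upregulated (0.77, SE 0.08, limma adjusted p-value 0.0001), with 2436 to 2839 normalized counts in bigenic and 1452 to 1558 in nontransgenic mice. Gadd45b, which acts in the stress response and in DNA demethylation, was upregulated too (0.98, SE 0.14, limma adjusted p-value 0.0007). Ptgs2, the inducible cyclooxygenase of excitatory neurons, was downregulated (−1.10, SE 0.16, limma adjusted p-value 0.0008), as was Jun. Of the other 6 called genes, Ier3, Ppp1r15a and Gadd45g were upregulated and Homer1, Plk2 and Ccrn4l downregulated. Ier3 reached 10 RPM only in bigenic mice, with a highest value of 15.2 RPM there and 8.39 RPM in nontransgenic mice. It entered the test through the group in which it was high, so its call is no independent support.

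Genes upstream of these promoters were called in both directions. Of 45 genes of calcium, cyclic AMP and ERK signalling and of the factors they act on, 44 were tested, with 14 downregulated (31.8%, beside 15.4% of all genes), 7 upregulated (15.9%, beside 20.5%) and a median log2(fold change) of −0.09. The 7 became 4 without nontransgenic mouse a, b or c. The genes called higher over the whole table also fell, from 2167 to 1605, 1512 and 1541. Camkk2, the kinase that activates Camk4, had a log2(fold change) of −1.32 (SE 0.08), and Camk4, a nuclear kinase of CREB, of −1.16 (SE 0.08). Ppp3r1, the regulatory subunit of calcineurin, had a log2(fold change) of −1.06 (SE 0.08). It was at 10189 to 11749 normalized counts in bigenic and 21697 to 25060 in nontransgenic mice. Among those upregulated were Crtc1, Prkaca, Hdac5, Mef2d, Grin1 and Elk1. Camk2a is in this list and is also 1 of the excitatory neuron markers, and the part of neuron content in these calls was not tested.

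Of 23 genes that rise later after activity, 22 were tested, and 6 were downregulated (27.3%, beside 15.4% of all genes) and 3 upregulated (13.6%, beside 20.5%), with a median log2(fold change) of 0.10. Nrn1, a membrane-anchored neurotrophic protein, fell by 1.14 on the log2 scale (SE 0.10, 2244 to 2928 normalized counts in bigenic and 5388 to 6260 in nontransgenic mice). The neuronal pentraxins Nptx2 (−1.14, SE 0.17) and Nptx1 (−0.62, SE 0.09), which cluster AMPA receptors, and Rgs4 (−0.79, SE 0.11), a regulator of G protein signalling, were downregulated as well, each with a limma adjusted p-value of at most 0.000927. Vgf, Cdkn1a and Ptprn were upregulated with all mice, but no later gene was without bigenic mouse d or nontransgenic mouse a or b. Without nontransgenic mouse c, or with a trend on GC content and length removed, 1 was. Over the whole table, the genes called higher also fell from 2167, to 1838 without bigenic mouse d and to 1605 and 1512 without nontransgenic mouse a and b.

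**Figure D5:**
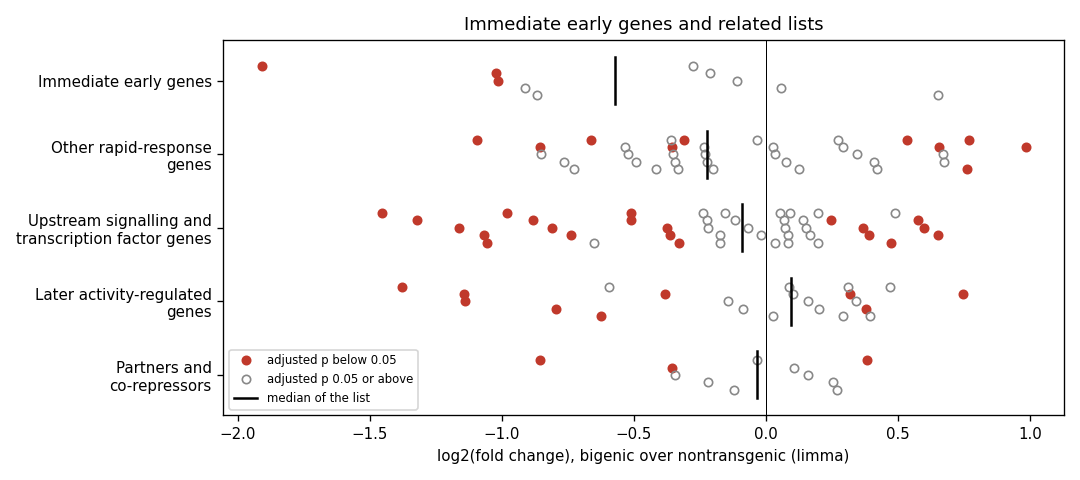
Log2(fold change) of each tested gene in the 10 immediate early genes and 4 related lists, bigenic over nontransgenic mice, with filled points for limma adjusted p-values below 0.05 and a black bar at the median of each list. The immediate early genes have the lowest median at −0.57, and of the 44 upstream genes 14 passed the test as lower and 7 as higher.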

How the data were processed

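Poly(A)+ RNA of mouse right cortex was sequenced (4 bigenic and 4 nontransgenic samples). The authors removed adaptors with cutadapt, aligned reads to the mm9 genome with Bowtie 0.12.7, kept those with 1 mapping position and counted them on exons with bedtools. They deposited normalized values (here a score, since they are rounded whole numbers and not raw counts) for 28662 transcripts. The sources used here do not describe the scaling. The worth of 1 read in each mouse was estimated from the integers that the scaling skips or doubles. A second deposited table, with the authors' own DESeq2 fold changes and p-values, was used for symbols only. Because the values are not raw counts, no count test was run.

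Genes with at least 10 RPM in at least one mouse were kept, values were transformed as log2(value + 1), and groups were compared with limma 3.58.1 (lmFit, eBayes with trend; R 4.3.3), adjusted by Benjamini-Hochberg over 10588 genes with a threshold of 0.05. The pseudocount shrinks the fold changes of genes with few reads. The scripts were tested on simulated data. For limma the simulated spread was set from the median of all genes, which is below that of each of the 10. That test therefore gives no power for these genes. Intervals of reads cover counting error only, and the p-values measure the spread between these samples. For ratios per mouse, exact permutation tests (two-sided) were run in Python 3.11.15 with scipy 1.17.1. Positions and exon lengths come from GENCODE vM1 on NCBIM37 (mm9).

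The genes and lists were chosen with earlier results of these data known. Named were the 10 genes, 4 per list by smallest adjusted p-value, all 11 partners, and the 5 genes with the highest correlation, while other called genes of the lists were named after their values were seen. Some genes of the lists are counted but not reported here by name. Marker lists for endothelial cells (1 of 5 lower), astrocytes (4 of 7 lower), microglia (5 of 5 tested lower), oligodendrocytes (0 of 6 called), choroid plexus (4 of 4 tested higher), striatal neurons (0 of 6 called) and dentate granule neurons (0 of 1 called) were examined with those of neurons. Alternatives were pseudocounts of 10 and 0.1, no filter, 10 RPM in every mouse, rescaling to 1 total, quantile normalization, array weights, voom on approximate reads, a trend on GC content and length removed (96.2% of genes had both), and leaving out each mouse. Leaving out the 3 mice with high Xist and comparing all 45 pairs, with and without single mice, were added after seeing the data.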

Additional observations from a re-analysis of the deposited data

Results flagged for a closer look

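Of 72 groups of 4 mice examined, for the 36 genes named by rule, 6 held 1 mouse far from the other 3 by Dixon's criterion at the 95% level (the gap to the nearest mouse over the range of the group), and chance alone gives about 1 in 20. None of the 10 immediate early genes was among them. In bigenic mice, mouse b was lowest for Atf2 (2951 normalized counts, the others at 3765 to 3879), and mouse a was highest for Rgs2 (2839, the others at 2436 to 2504). In nontransgenic mice, mouse c was highest for Camk4 (12514, the others at 11044 to 11140) and for Camkk2 (8297, the others at 7543 to 7565). Nontransgenic mouse d was highest for Mafk (286, the others at 185 to 193) and for Rxra (846, the others at 661 to 682).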

How the results depend on the processing

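No immediate early gene was called higher, and 2 to 4 were called lower, under each of 18 alternatives. Egr3 (limma adjusted p-value 1.15e-05 to 0.0441) and Npas4 (1.59e-06 to 0.0478) passed in all 18. Egr1 passed with array weights (log2(fold change) −0.88, limma adjusted p-value 0.000383), voom (−0.93, 0.0473) and the GC and length trend removed (−0.97, 0.0404). Egr2 did not pass without the filter (−1.91, limma adjusted p-value 0.0564) or without the 3 mice with high Xist (−1.70, 0.196). Fosb turned to −0.060 with the GC and length trend removed and Egr4 to 0.14 with array weights. The cause was not tested. No paired analysis was possible because the columns carry no replicate numbers.

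Array weights moved the genes called over the whole table to 3611 higher and 2844 lower, the other rapid-response genes to 10 and 12, the upstream genes called higher to 12 and the later genes called higher to 8. Without the 3 mice with high Xist, with fewer samples, 379 genes were called higher and 296 lower, the other rapid-response genes were 1 and 1, the upstream genes 1 and 8, and the later genes called higher 1. With 10 RPM in every mouse, 2 other rapid-response genes were called higher, and with the GC and length trend removed, 1 later gene.

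With each mouse left out in turn, the log2(fold change) ranged from −0.75 to 0.21 for Fos, −0.30 to 0.44 for Fosb, −0.48 to 0.15 for Junb, −1.21 to −0.61 for Egr1, −2.45 to −1.47 for Egr2, −0.36 to −0.0070 for Egr4, −1.57 to −0.39 for Arc and 0.25 to 1.02 for Nr4a1. The difference in the log2 ratio ranged from −0.059 to 0.31 for Egr1 over Egr3 and from −0.27 to 0.057 for Fos over Junb. The genes called ranged from 1512 to 2683 higher and 1113 to 2134 lower over the whole table. The other rapid-response genes ranged from 4 to 7 higher and 4 to 11 lower (11 without bigenic mouse b), the upstream genes from 4 to 8 higher (4 without nontransgenic mouse a, b or c) and the later genes from 0 to 4 higher (0 without bigenic mouse d or nontransgenic mouse a or b, and 1 without nontransgenic mouse c). With 1 mouse left out, the ratio tests allow 35 arrangements. Depth limits Egr2 most, since 3 reads stand for 1.94 to 6.20 normalized counts.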

Other observations

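Choroid plexus markers, genes of the epithelium that makes cerebrospinal fluid, were higher in bigenic cortex. The summed level of the 4 tested markers was 8385 to 19459 normalized counts in bigenic mice and 363 to 1203 in nontransgenic mice, and all 4 were higher by limma. Within the bigenic mice the sum was 19459 in mouse a, which was lowest for the immediate early genes, and 8385 in mouse b, which was highest for 9 of the 10. In nontransgenic mice a to d it was 944, 363, 946 and 1203, the highest value being that of mouse d, which was also highest for 9 of the 10. Astrocyte markers summed to 119057 to 140275 normalized counts in bigenic and 147597 to 159105 in nontransgenic mice, with 4 of 7 lower, and microglial markers to 3278 to 3709 and 4385 to 4956, with 5 of 5 tested lower. No oligodendrocyte marker was called, and the sums overlapped (55797 to 75992 and 58580 to 74138). Of these marker lists, none of the tested genes was at 0 in any mouse.

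Some other genes of the rapid-response list varied between mice of one group as the immediate early genes did. The residual SD of log2 values was 0.79 for Dusp1, a phosphatase of MAP kinases, 0.67 for Sik1, a kinase that is itself induced by CREB, and 0.57 for Per1, a clock gene that is also induced by CREB. For Dusp1, 99.7% of the genes tested had a smaller value. Others of the list varied little, such as Rgs2 at 0.08 and Plk2 at 0.13. These genes were chosen after their values were seen.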
